A study of Mus musculus with 22 samples.

Results

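Somites cells are the 1625 cells that the authors' deposited cell table names Somites, out of 77674 cells in all (2.09%). They were chosen by that name alone, matched in full so that the separate type Mature Somites stayed out, and their UMI counts (unique transcript molecules counted per gene and cell) were read from the matrices by lane and barcode. The cells came from gastruloids, aggregates of mouse embryonic stem cells that produce many tissues of the young embryo in a dish. Of the 1625 cells, 1344 (82.7%) carried the barcode of 1 of 84 gastruloids, 98 were called doublets by their barcodes, 14 had no barcode and 169 were marked unidentifiable. The last were the 49, 46 and 74 Somites cells of the libraries without gastruloid calls, named below. The same table names 2109 Late Anterior PSM cells (PSM is presomitic mesoderm), 2556 Early Anterior PSM cells and 9268 Mature Somites cells, the neighbouring types used below for comparison.

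All groups shared the line E14Tg2A, genotype WT, and were seeded at 300 cells per well, aggregated for 48 h and then pulsed with 3 µM CHIR99021, a GSK3 inhibitor that activates Wnt signalling. No group without CHIR99021 was analysed here. In MULTI-seq, the cells of each gastruloid receive a lipid-anchored DNA barcode before pooling, so the replicate here is the gastruloid, and the lanes of a pool are technical splits. Gastruloids with at least 30 barcoded cells entered the shares. They numbered 24 at day 3 and 16 each at days 3.5, 4, 4.5 and 5 in MULTI-seq 3, 11 at day 4 and 12 at day 4.5 in MULTI-seq 2, and 24 at day 5 in MULTI-seq 1. Days 3.5 and 4 of MULTI-seq 3 shared a pool, as did its days 4.5 and 5. Pool C of MULTI-seq 2 and the 10X lanes had no gastruloid calls and entered no test.

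Somites are the paired blocks of paraxial mesoderm that bud from the anterior end of the presomitic mesoderm and later give rise to vertebrae, skeletal muscle and dermis. An oscillating network of Notch, Wnt and FGF genes sets the rhythm of budding, and Mesp2 and Ripply genes position each new boundary. Each somite is divided into a rostral compartment marked by Tbx18 and a caudal one marked by Uncx. Retinoic acid made by the somites through Aldh1a2 opposes FGF signalling from the tail, and the Hox genes a somite expresses record its place along the body axis.

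The given markers were found in the cells that carry the name. At day 5 of MULTI-seq 3 the summed Somites cells of 12 gastruloids held Tcf15, a factor needed to make somites epithelial, at 1326 ± 166 CPM (a gene's UMI count scaled to a common total for every gastruloid; mean ± SD), Meox1, a homeobox factor of early somites, at 425 ± 83.1, Uncx at 109 ± 36.7 and Aldh1a2 at 201 ± 59.0. Each of the 1625 cells had a UMI of at least 1 of the 4 markers, 652 (40.1%) had all 4 and 757 (46.6%) had 3. A UMI of Tcf15 was present in 98.9% of Somites cells, of Meox1 in 86.2%, of Aldh1a2 in 95.1% and of Uncx in 46.1%. In Mature Endoderm cells, which should lack them, the shares were 10.4%, 3.87%, 10.9% and 0.766%, at a median of 35773 UMIs per cell against 25468 in Somites cells. Clustering used these genes, so these values describe the name and test nothing.

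Libraries differed in depth and quality. The median UMI count of Somites cells ran from 24320 to 31451 in the gastruloid groups of MULTI-seq 2 and 3 and was 10712 in MULTI-seq 1. Their median mitochondrial share was 1.92% to 2.23% in MULTI-seq 3 and 5.17% to 5.35% elsewhere. No barcode was shared between Somites cells of different lanes. Among all cells, 732 barcodes appeared in more than 1 lane (1471 cells). How many of these joined a Somites cell to a cell of another type was not counted. Markers of other types were summed per gastruloid in MULTI-seq 3. At days 4, 4.5 and 5 the 12 neural markers summed to medians of 291, 401 and 556 CPM. Among them is Hes5, which was higher in Somites cells than in Late Anterior PSM or Mature Somites cells. The 8 head mesoderm markers (among them Prrx2, a leading gene of Somites cells) summed to 718, 531 and 286 CPM. The 11 cardiopharyngeal ones summed to 110, 31.9 and 30.2 CPM and the 10 endoderm ones to 20, 6.27 and 5.59 CPM. All 6 erythroid genes were at 0.

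Against all other cells of the same gastruloid, Somites cells were led by Dmrt2, a DM-domain factor of the epithelial somite and dermomyotome. Over 55 gastruloids with at least 10 Somites cells, Dmrt2 was at 225 ± 67.1 CPM in Somites cells and 11.1 ± 4.70 in the rest, a mean log2 ratio of 3.45 ± 0.50 (SD; 10 CPM added before the logarithm). Next came the growth arrest gene Gadd45g at a log2 ratio of 2.92 and the forkhead gene Foxd1 at 2.68, each higher in 55 of 55 gastruloids. The 15 leading genes also held Clu, Tcf15 (2.09), the glycosyltransferase of the clock Lfng (2.01), the ephrin ligand Efnb2 (1.91), the BMP and Nodal antagonist Cer1 (1.78) and the Notch feedback gene Nrarp (1.76). Uncx, Meox1 and Aldh1a2 stood at 1.68, 1.61 and 1.60. These ratios describe a cluster by the genes that made it.

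Late Anterior PSM cells held the boundary genes. Over 46 gastruloids with at least 10 cells of each type, Ripply2 was at 292 ± 131 CPM there and 7.68 ± 14.4 in Somites cells, and Mesp2 at 134 ± 66.9 against 4.88 ± 11.8. The protocadherin Pcdh8 (log2 ratio -2.94), the clock gene Hes7 (-2.42) and the Notch ligand Dll1 (-2.41) were likewise lower in Somites cells in 46 of 46 gastruloids. In the other direction, Uncx was at 88.9 ± 45.3 CPM in Somites cells and 2.43 ± 2.59 in Late Anterior PSM cells, and the cadherin Cdh11 had a log2 ratio of 2.14. Dmrt2 was higher in Somites cells than in either neighbour, at log2 ratios of 2.85 against Late Anterior PSM (46 of 46 gastruloids) and 2.45 against Mature Somites (50 of 50), and so was Hes5, at 1.90 (42 of 46) and 3.54 (50 of 50). Aldh1a2 was slightly lower in Somites cells (-0.27, in 40 of 46).

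Against Mature Somites cells the highest log2 ratios, over 50 gastruloids, were those of Gadd45g (3.62), Nrarp, Hes5 and Lfng. Nrarp was at 298 ± 128 CPM in Somites cells and 15.4 ± 9.02 in Mature Somites cells, Hes5, a Notch target, at 187 ± 112 against 4.44 ± 4.41, and Lfng at 146 ± 83.1 against 2.38 ± 1.89. The insulin-like growth factor binding gene Igfbp5 ran the other way, at 6.41 ± 8.05 CPM in Somites cells against 325 ± 147, as did the activin antagonist Fst at 61.7 ± 43.5 against 388 ± 176. Of the given markers, Aldh1a2 (1.46) and Tcf15 (0.83) were higher in Somites cells in 50 of 50 gastruloids, whereas Uncx and Meox1 had log2 ratios of 0.16 and 0.01. In Late Anterior PSM cells of MULTI-seq 3, Lfng was at 134 ± 27.1 CPM at day 4 (n = 10) and 166 ± 37.2 at day 5 (n = 15), against 57.5 ± 16.9 and 150 ± 25.1 in Somites cells (n = 12 each).

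**Figure D1:**
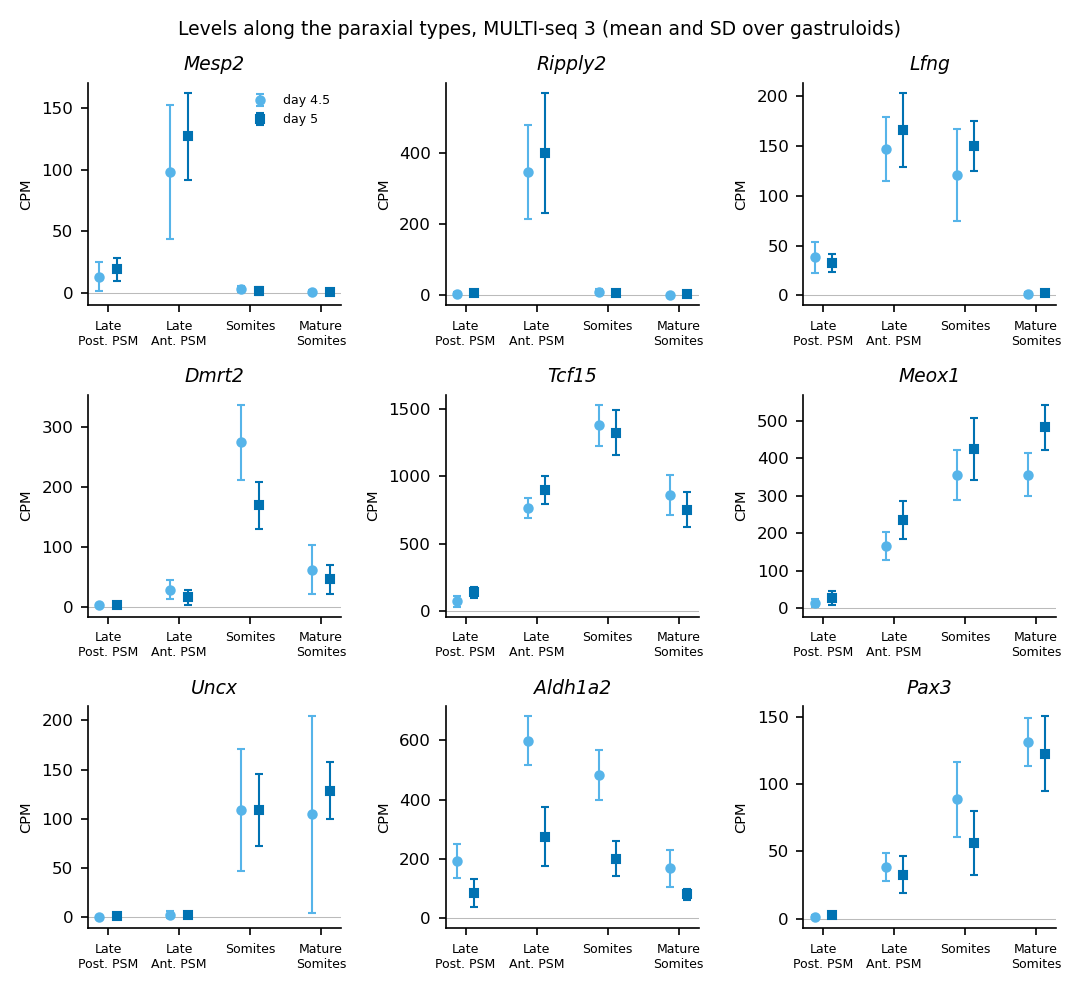
Levels (CPM, linear axes) of genes in 4 paraxial types of MULTI-seq 3, by day; points are means and bars SD over gastruloids with at least 10 cells of the type. At day 5 Mesp2 averaged 127 CPM in Late Anterior PSM and 1.42 in Somites cells, and Lfng 150 in Somites cells and 2.16 in Mature Somites.

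Few cells held both the rostral marker Tbx18 and the caudal marker Uncx, and Tbx18 itself was rare. Before thinning, 716 cells had a UMI of Uncx without Tbx18, 84 of Tbx18 without Uncx, 33 of both (2.03%) and 792 of neither; called doublets are in these counts, and of the 1344 cells with a gastruloid call 25 had both (1.86%). For all 1625 cells the product of the separate shares is 3.32%. To compare groups of unequal depth, each cell was thinned once, at random, to 5000 UMIs, which left out 4 shallower cells. Uncx was then found in 378 cells without Tbx18, Tbx18 in 25 without Uncx, and both in 2 cells of 1621. The thinned share of cells with Uncx was 14.2% at day 4, 30.5% at day 4.5 and 29.8% at day 5 of MULTI-seq 3 (36.0%, 51.7% and 58.4% before thinning), where days 4 and 4.5 came from different pools. In MULTI-seq 2, where they shared a pool, it was 14.8% of 54 cells at day 4 and 18.1% of 94 at day 4.5 (44.4% and 45.7% before thinning). At day 5 of MULTI-seq 1 it was 33.1% (46.2% before). In Mature Endoderm cells it was 0.183% over all groups. Tbx18 was found in 0.621% to 1.72% of thinned cells in MULTI-seq 3, a few cells per day, too few to order the days.

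The authors also mapped each cell to a type of an embryo reference. Of the 1625 cells, 715 (44.0%) mapped to Posterior somitic tissues, 490 (30.2%) to Dermomyotome, 261 (16.1%) to Paraxial mesoderm and 132 (8.12%) to Somitic mesoderm, and the largest mesodermal label outside the somitic lineage, Kidney primordium, took 10. The share per gastruloid mapped to Posterior somitic tissues was 28.8% ± 16.4 at day 4 (n = 12), 62.1% ± 10.7 at day 4.5 (n = 10) and 62.2% ± 11.7 at day 5 (n = 12) in MULTI-seq 3. The same label took 51.3% ± 13.5 and 50.9% ± 23.0 at days 4 and 4.5 of MULTI-seq 2 (n = 4 each), and at day 5 of MULTI-seq 1 it was 33.6% ± 9.03 (n = 13). Paraxial mesoderm took 35.3% ± 20.8 at day 4, 4.32% ± 4.08 at day 4.5 and none of 322 cells at day 5 in MULTI-seq 3, 33.0% ± 22.4 and 13.0% ± 11.1 at days 4 and 4.5 in MULTI-seq 2, and 4.11% ± 4.17 at day 5 in MULTI-seq 1. A second mapping by the authors, to mesoderm labels, gave other shares: 1141 of the cells (70.2%) were Dermomyotome and 450 (27.7%) Posterior-most_somites. The latter label took 8.56% ± 6.95, 20.4% ± 11.8 and 38.9% ± 12.2 per gastruloid at days 4, 4.5 and 5 of MULTI-seq 3. It took 9.58% ± 7.25 and 33.8% ± 15.1 at days 4 and 4.5 of MULTI-seq 2, and 55.2% ± 15.5 at day 5 of MULTI-seq 1. Either mapping uses the same counts as the cluster and was not tested.

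The first comparison asked when Somites cells appear and how their share moves. None was found among 5778 barcoded cells at day 3 or 4679 at day 3.5, which allows shares of up to 0.0519% and 0.0641% (3 cells of the total, counting error only). At day 4 of MULTI-seq 3, in the same pool as day 3.5, 13 of 16 gastruloids held some, and the share of a gastruloid's cells ran from 0% through a median of 2.56% to 8.70%, with a mean of 3.05% ± 2.44 (SD, n = 16). The rise from 0% had an adjusted p of 3.5e-05 (two-sided permutation test over gastruloids, 100000 resamples, whose smallest possible p is 1e-05, adjusted over 21 cell types), and 16 of those types (76.2%) passed. Among paraxial cells alone, all 6 types tested (100%) passed. Gastruloids of the same day and pool thus ranged from none to 8.70%.

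After day 4 the share of all cells showed no change that passed in the steps tested. The step from day 4 to day 4.5 of MULTI-seq 3 was not tested. In MULTI-seq 3 it was 3.78% ± 2.29 at day 4.5 (0% to 7.14%, n = 16) and 3.12% ± 1.65 at day 5 (0.203% to 6.18%, n = 16), a difference of -0.656 percentage points (adjusted p = 0.535, permutation test over 15 types, of which 4 (26.7%) passed). In MULTI-seq 2 it was 2.46% ± 3.13 at day 4 (n = 11) and 2.95% ± 2.59 at day 4.5 (n = 12), with 7 of 20 types (35%) passing and Somites not among them (adjusted p = 0.718). The Somites share did not pass between experiments at day 4, 4.5 or 5. Of the types tested there, 0 of 20 (0%), 0 of 16 and 1 of 13 (7.69%) passed, the last being Mature Somites at day 5 (permutation test, adjusted p = 0.0217), with a mean of 31.0% in MULTI-seq 3 against 18.2%. At day 5, 16 of 16 gastruloids of MULTI-seq 3 and 24 of 24 of MULTI-seq 1 held Somites cells, at 3.12% ± 1.65 and 2.67% ± 1.56.

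Among paraxial cells the share fell from day 4.5 to day 5. Paraxial cells are here Somites, Mature Somites and the 4 anterior and posterior PSM types, in gastruloids with at least 20 of them. Somites made up 9.58% ± 2.82 of them at day 4.5 (6.25%, 9.09% and 17.1% as lowest, median and highest, n = 14) and 6.09% ± 2.09 at day 5 (1.40%, 6.72% and 9.0%, n = 16). All 16 day 5 gastruloids were below the day 4.5 median, although the groups overlapped. The difference of -3.48 points had an adjusted p of 0.000105 (permutation test, 100000 resamples, 6 types), and 5 of the 6 types (83.3%) passed, so a change was the usual case among them. Over the same step Mature Somites rose from a mean of 44.3% to 64.8% of paraxial cells (permutation test, adjusted p = 8e-05), while its share of all cells, 19.7% ± 15.4 and 31.0% ± 11.7, did not pass (adjusted p = 0.0858). Leaving out a lane gave -3.69 (A), -2.83 (B) and -2.86 (C).

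**Figure D2:**
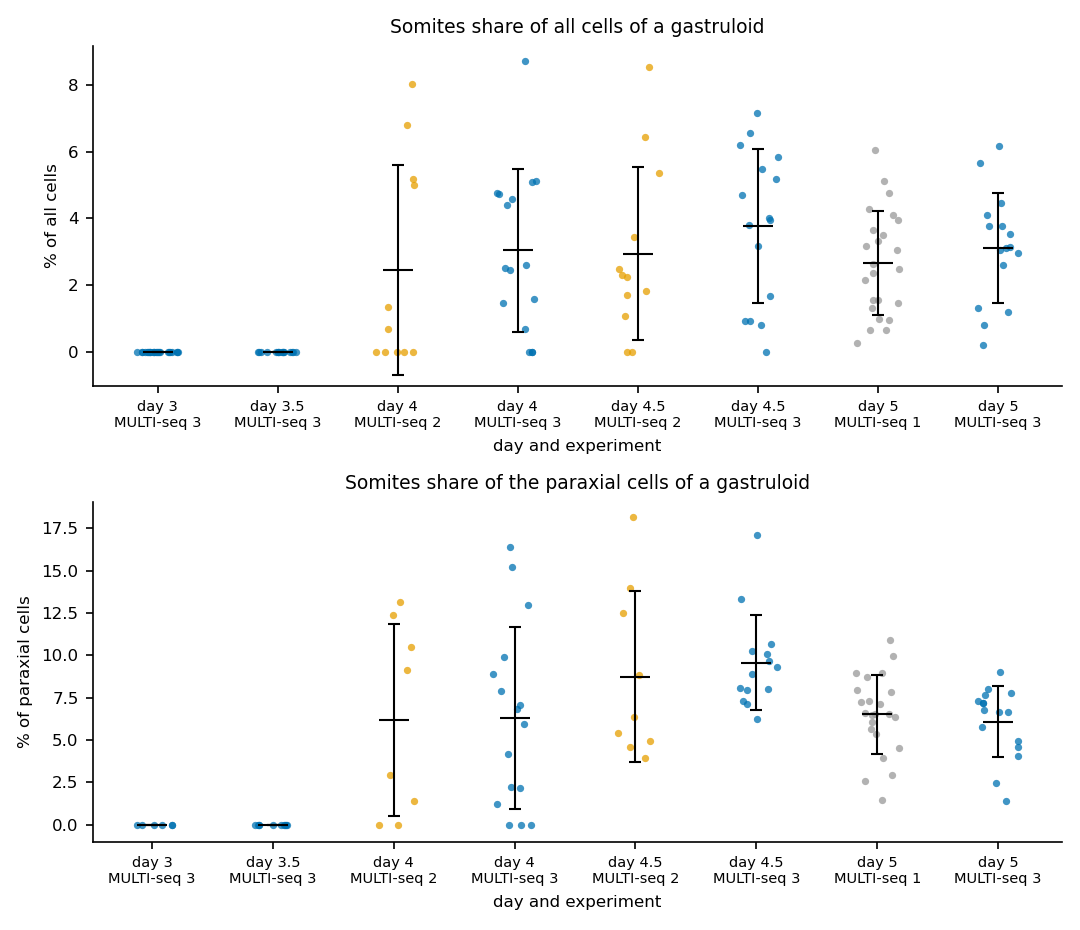
Somites cells as a percent of a gastruloid's cells and of its paraxial cells, by day and experiment; points are gastruloids and bars the mean and SD. The share of all cells stayed between means of 2.46% and 3.78% from day 4 on, while that of paraxial cells was 9.58% at day 4.5 and 6.09% at day 5 in MULTI-seq 3.

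The Somites share rose with the Late Anterior PSM share over all cells in each of the 5 groups tested, with the Late Posterior PSM share in 4 of 6, and with other neighbours in some. Over 82 relations of the Somites share with other types, within a day and experiment, 25 (30.5%) passed at an adjusted p under 0.05, 17 positive and 8 negative. In 7 of the 25 the gastruloids fell into separate clusters, and no coefficient is given for those. The relation with Late Anterior PSM, the type that precedes Somites, had r = 0.83 at day 5 of MULTI-seq 3 (permutation p = 5e-05, adjusted 0.00102; rho = 0.68, p = 0.0046; r = 0.69 without the 2 most extreme gastruloids; n = 16). In MULTI-seq 1 it had r = 0.79 (permutation p = 1e-05, the smallest possible, adjusted 0.000547; rho = 0.82, p = 1e-05; r = 0.76 without 2; n = 24). At day 4.5 of MULTI-seq 3 it had r = 0.89 (permutation p = 2e-05, adjusted 0.000547; rho = 0.82, p = 0.0002; r = 0.86 without 2; n = 16). At day 4 of MULTI-seq 3 r was 0.70 (permutation p = 0.00254, adjusted 0.011; rho = 0.82, p = 0.00021; r = 0.70 without 2; n = 16), and at day 4.5 of MULTI-seq 2 it was 0.76 (permutation p = 0.00339, adjusted 0.0139; rho = 0.81, p = 0.00221; r = 0.83 without 2; n = 12). With both shares among paraxial cells, at day 5 of MULTI-seq 3, day 5 of MULTI-seq 1 and day 4.5 of MULTI-seq 3 the relation did not pass (r = 0.55, 0.44 and 0.62, permutation test, adjusted p = 0.0618, 0.0789 and 0.0582), nor at day 4.5 of MULTI-seq 2 (r = 0.31, adjusted p = 0.602). At day 4 of MULTI-seq 3 it did (r = 0.75, adjusted p = 0.0159). At day 4 of MULTI-seq 2 it also passed, in gastruloids that fell into separate clusters (exact permutation test, adjusted p of r = 0.0348, of rho = 0.0619). Late Posterior PSM, over all cells, had r = 0.83 at day 4.5 of MULTI-seq 2, 0.75 and 0.76 at days 4.5 and 5 of MULTI-seq 3 and 0.70 at day 5 of MULTI-seq 1 (permutation p = 0.00037, 0.00092, 0.0006 and 0.0002, adjusted 0.00312, 0.00539, 0.0041 and 0.00205; rho = 0.90, 0.78, 0.81 and 0.72; r = 0.78, 0.67, 0.66 and 0.71 without 2). With both shares among paraxial cells it passed in none of these 4 (r = 0.10, 0.04, 0.37 and -0.01, permutation test, adjusted p = 0.91, 0.977, 0.277 and 0.987). Over all cells it did not pass at day 4 of MULTI-seq 3 (r = 0.06, adjusted p = 0.877) or of MULTI-seq 2, where gastruloids fell into separate clusters. Early Anterior PSM did not pass over all cells at day 4 or 4.5 of MULTI-seq 3 (r = 0.12 and 0.40, permutation test, adjusted p = 0.765 and 0.211), nor Mature Somites at day 4.5 of MULTI-seq 2 (r = 0.45, adjusted p = 0.221) or, in separate clusters, at day 4 of MULTI-seq 3 (permutation test, adjusted p of r = 0.355, of rho = 0.00574). Shares of one gastruloid sum to a fixed total, so they are not independent of each other.

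At day 5 of MULTI-seq 3 the share of Mature Somites, the later type, was related to that of Somites positively over all cells and negatively among paraxial cells. Over all cells of MULTI-seq 3 day 5 gastruloids the relation had r = 0.78 (permutation p = 0.00038, adjusted 0.00312; rho = 0.75, p = 0.0012; r = 0.65 without 2; n = 16). With both shares taken among paraxial cells, a choice made after the data were seen, it had r = -0.71 (permutation p = 0.00187, adjusted over 26 relations 0.0162; rho = -0.69, p = 0.0036; r = -0.63 without 2). Late Spinal Cord, a neural type, was inversely related to Somites in MULTI-seq 1, with r = -0.71 (permutation p = 0.00011, adjusted 0.0018; rho = -0.63, p = 0.00116; r = -0.72 without 2; n = 24). Over all cells the relation with Mature Somites also passed at day 4.5 of MULTI-seq 3 (r = 0.83, permutation p = 0.00018, adjusted 0.00205, rho = 0.84, r = 0.79 without 2). It passed too at day 5 of MULTI-seq 1 (r = 0.53, permutation p = 0.00921, adjusted 0.0343, rho = 0.60, r = 0.46 without 2) and, in separate clusters, at day 4 of MULTI-seq 2. Among paraxial cells the sign for Mature Somites also differed between days. It was negative at day 4.5 of MULTI-seq 2 (r = -0.80, exact permutation p = 0.00899, adjusted 0.0348; rho = -0.88, p = 0.00308; r = -0.60 without 2; n = 9). At day 4 of MULTI-seq 3 r was 0.31 (permutation p = 0.245, adjusted 0.375) and rho 0.76 (p = 0.00136, adjusted 0.0118; r = 0.40 without 2; n = 16). At day 4 of MULTI-seq 2 it was positive in gastruloids that fell into separate clusters. At day 4.5 of MULTI-seq 3 (r = -0.47, permutation p = 0.0863, rho = -0.49, p = 0.0783) and day 5 of MULTI-seq 1 (r = -0.28, permutation p = 0.195, rho = -0.38, p = 0.0724) it did not pass. The differences between days were not tested.

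**Figure D3:**
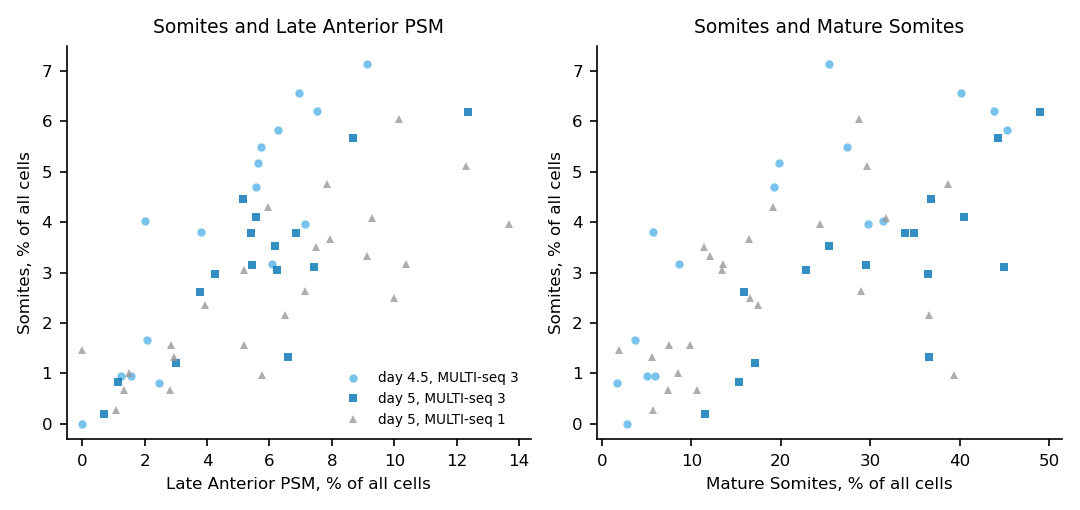
Somites share against the shares of Late Anterior PSM and of Mature Somites, each a percent of all cells of a gastruloid, with points for gastruloids coloured by day and experiment. At day 5 of MULTI-seq 3 r was 0.83 with Late Anterior PSM and 0.78 with Mature Somites.

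From day 4.5 to day 5, within the pool of MULTI-seq 3, Somites cells gained posterior Hox genes and had lower Aldh1a2 and Crabp1, while the markers Tcf15, Meox1 and Uncx did not pass the test. Counts were summed per gastruloid with at least 10 Somites cells (300 cells in 12 gastruloids at day 5, 157 cells in 10 at day 4.5; 251324 to 1274022 UMIs per sum) and compared with edgeR's quasi-likelihood test. Of 6146 genes tested, 221 (3.6%) passed a Benjamini-Hochberg adjusted p under 0.05, 125 higher (2.03%) and 96 lower (1.56%). Leaving out lane A, B or C in turn gave 139, 107 and 82. Fewer cells then entered the sums and fewer gastruloids reached 10 cells, and the part of either was not tested. Cells were named by the same counts, so gene tests are conditional on the authors' naming.

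Hoxb9 (ENSMUSG00000020875), a trunk Hox gene, had 16.2, 31.9 and 75.9 CPM as lowest, median and highest at day 4.5 and 121, 152 and 196 CPM at day 5. The groups did not overlap, as in 15 of all 6146 genes tested (either direction), and every day 5 gastruloid was above every day 4.5 one. The log2 fold change was 2.12 ± 0.14 (SE; edgeR adjusted p = 2.91e-14). Hoxa7 rose from 6.2, 16.3 and 40.7 CPM to 51.7, 87.4 and 112 CPM (log2 2.25 ± 0.18, edgeR adjusted p = 4.55e-12), again without overlap. Hoxc8 was at most 3.70 CPM at day 4.5 and between 5.94 and 42.9 CPM at day 5 (log2 4.05 ± 0.45, adjusted p = 1.59e-08); its day 4.5 level rests on few UMIs.

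Of the 11 genes listed for Hox groups 5 to 8, 8 were tested. Of these, 4 rose (Hoxa7, Hoxc8, Hoxb7, Hoxb8) and none fell, against 2.03% and 1.56% of all genes tested. Their median log2 change was 0.60 against -0.00 over all genes. Hoxb7 rose by 1.02 ± 0.18 (adjusted p = 0.000133) and Hoxb8 by 0.63 ± 0.16 (adjusted p = 0.0129 in edgeR), the latter no longer past the threshold without lane C (0.75, adjusted p = 0.19). Of groups 9 to 13, 2 of 16 genes were tested and Hoxb9 rose. Of the 7 genes tested from the anterior groups 1 to 4, Hoxa2 fell (log2 -0.98, adjusted p = 0.000406) and none rose. With the median UMI count as a covariate Hoxa2 and Hoxb8 did not pass (adjusted p = 0.072 and 0.08). Hoxb5os, a transcript antisense to Hoxb5 and Hoxb6, rose by 1.41 ± 0.14 (adjusted p = 5.55e-10). No source used here says whether the authors' counting separated strands, so its reads and those of the genes it overlaps are uncertain.

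Of the 12 genes listed for retinoic acid synthesis, binding and breakdown, 4 were tested. Of these, 2 fell and none rose, against 1.56% and 2.03% of all genes tested. Their median log2 change was -0.96 against -0.00 over all genes. Aldh1a2 (ENSMUSG00000013584), which makes retinoic acid from retinaldehyde, had 366, 480 and 590 CPM as lowest, median and highest at day 4.5 and 91.5, 195 and 290 CPM at day 5 (log2 -1.23 ± 0.11, edgeR adjusted p = 2.16e-11). Crabp1 (ENSMUSG00000032291), a cytoplasmic binding protein for retinoic acid, had 212, 286 and 576 CPM and then 46.6, 89.0 and 132 CPM (log2 -1.91 ± 0.15, adjusted p = 2.33e-12). For both genes all 12 day 5 gastruloids were below all 10 day 4.5 ones, and the calls held in each alternative run. Of all 6146 genes tested, 15 did not overlap between the days, in either direction.

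**Figure D4:**
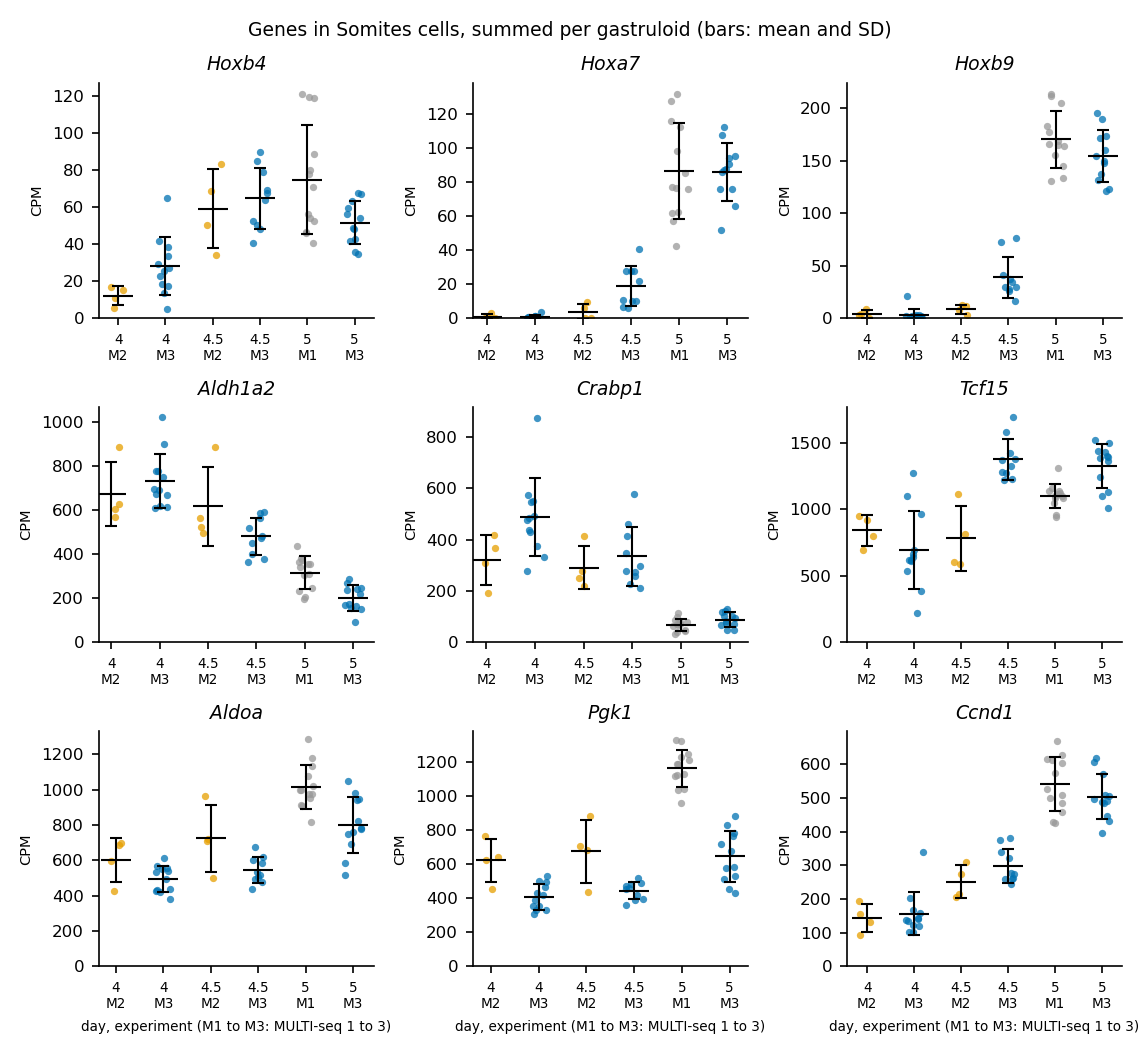
CPM of genes in Somites cells summed per gastruloid, by day and experiment (linear axes from 0); points are gastruloids with at least 10 Somites cells and bars the mean and SD. In MULTI-seq 3 Hoxb9 averaged 3.09, 38.8 and 155 CPM at days 4, 4.5 and 5, and Aldh1a2 733, 482 and 201 CPM.

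Of the 11 somite transcription factors tested, 1 rose and 3 fell, against 2.03% and 1.56% of all genes tested. Snai1, a regulator of epithelial to mesenchymal change, rose (log2 0.96 ± 0.27, edgeR adjusted p = 0.0345). Dmrt2 fell from 274 ± 63.1 to 169 ± 39.1 CPM (log2 -0.70 ± 0.11, adjusted p = 3.96e-05), Twist1, a mesenchymal factor, by 0.57 on the log2 scale and Pax3, a dermomyotome and muscle progenitor factor, by 0.69 (adjusted p = 0.0159). Snai1 lost its call without lane A, B or C in turn (adjusted p = 0.14, 0.058 and 0.2), Pax3 without A or B (0.062 and 0.18), and Dmrt2 and Twist1 without C (0.07 and 0.22). Tcf15 had a log2 change of -0.04, Uncx of 0.09 and Meox1 of 0.26 (adjusted p = 0.815, 0.886 and 0.079), with overlapping groups. The head mesoderm and limb gene Prrx2 fell from 516 ± 56.2 to 294 ± 39.3 CPM (log2 -0.81 ± 0.07, adjusted p = 2.46e-11).

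Signalling and growth genes moved in smaller numbers. For the counts below, 2.03% of all genes tested rose and 1.56% fell. Of 14 Notch and clock genes tested, Notch1 rose by 0.46 on the log2 scale (322 ± 63.8 to 438 ± 55.2 CPM, edgeR adjusted p = 9.18e-05) and Hes5 by 0.84 ± 0.19 (adjusted p = 0.00407), and none fell; Hes5 did not pass in DESeq2 (adjusted p = 0.058) or with depth as a covariate (0.2). Hes5 is also 1 of the 12 neural markers, whose sum, Hes5 included, had a median of 401 CPM at day 4.5 and 556 CPM at day 5. Of these markers 2 were tested, Hes5 and Ncam1, and both rose. The part of other cells in the Hes5 value was not tested. Ccnd1, which drives entry into S phase, rose from 299 ± 50.4 to 504 ± 67.0 CPM (log2 0.74 ± 0.08, adjusted p = 9.55e-09), and the growth inhibitor Cdkn1c from 253 ± 63.3 to 522 ± 132 CPM (log2 1.08 ± 0.12, adjusted p = 2.26e-08). Of 16 S phase genes 1 fell (Slbp) and of 16 G2 and M phase genes 1 rose (Ube2c), and neither call held without lane B or C. Among the largest falls were those of Ptgds by 1.42, Runx1 by 1.20 and Gas1 by 1.01 on the log2 scale, Runx1 not without lane C (adjusted p = 0.097) and Ptgds not with at least 20 cells (0.085). Of 10 FGF target genes tested, Dusp6 (log2 0.98) and Il17rd (0.73) rose; without lane C both lost the call (adjusted p = 0.21 and 0.19).

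Of 14 glycolysis genes tested, 10 rose and 1, Aldoc, fell, against 2.03% and 1.56% of all genes tested. Their median log2 change was 0.30, against -0.00 over all genes. The aldolase gene Aldoa went from 545 ± 72.7 to 800 ± 160 CPM (log2 0.57 ± 0.09, edgeR adjusted p = 6.8e-05), Pgk1 from 446 ± 49.7 to 646 ± 151 CPM (0.55 ± 0.10, adjusted p = 0.000503), and Tpi1, the next enzyme after aldolase, from 331 ± 60 to 464 ± 89.0 CPM (0.51 ± 0.10, adjusted p = 0.00055). Aldoc, another aldolase gene, went from 46.4 ± 13.7 to 17.5 ± 9.85 CPM (-1.31 ± 0.21, adjusted p = 4.18e-05). For each the groups overlapped. Aldoa, Pgk1 and Tpi1 did not pass with at least 20 cells per gastruloid (edgeR adjusted p = 0.194, 0.50 and 0.326), Pgk1 and Tpi1 did not with the depth covariate (0.165 and 0.181), and Pgk1 did not without lane C (0.14). Gapdh, Ldha, Pkm, Slc2a1, Gpi1, Pfkl and Pgam1 were the others that rose. The count was smaller in several alternatives: 8, 5 and 3 of the genes rose without lanes A, B and C, and 1 with the median UMI count as a covariate or with at least 20 cells per gastruloid. Median depth was 30705 UMIs per cell at day 4.5 and 27360 at day 5.

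Sequences upstream of Aldoa and Pgk1, the 2 glycolysis genes with the smallest p among those that rose, are shown because hypoxia-inducible factors, known activators of glycolysis genes, bind a core of the letters ACGTG. Capitals mark each match on either strand in the 250 bases before a RefSeq start (GRCm38.p6), written along the gene's own strand. The Aldoa window is the second of its 3 starts, shown because the first held no match, at chr7:126799255-126799504 on the minus strand, and the Pgk1 window lies at chrX:106186850-106187099 on the plus strand.
Aldoa: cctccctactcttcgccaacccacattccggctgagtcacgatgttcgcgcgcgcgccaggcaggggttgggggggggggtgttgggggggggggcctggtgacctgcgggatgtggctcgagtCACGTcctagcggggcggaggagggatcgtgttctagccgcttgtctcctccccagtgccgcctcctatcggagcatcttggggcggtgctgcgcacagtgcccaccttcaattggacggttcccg
Pgk1: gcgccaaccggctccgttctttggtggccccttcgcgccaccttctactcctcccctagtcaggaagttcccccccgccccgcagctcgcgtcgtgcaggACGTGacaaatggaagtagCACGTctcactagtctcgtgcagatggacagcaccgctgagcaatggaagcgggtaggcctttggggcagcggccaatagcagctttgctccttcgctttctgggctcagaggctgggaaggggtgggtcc
The Aldoa window held 1 match and the Pgk1 window 2. Of the 18 listed glycolysis genes with a RefSeq promoter, 8 (44.4%) had a match before at least 1 start, among them 6 of the 10 that rose, against 18.5% of all 27025 genes. Listed genes have more starts each, so the shares by window are given too: 10 of their 30 windows (33.3%) held a match, 2 of them overlapping windows of Aldoa, against 16.6% of all 32851 windows. Some matches at other genes overlap CACGTG, the E-box of other factors. A match is a run of letters and no evidence of binding.

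The same day effect was set beside that of the neighbouring types, in a fit with each gastruloid as a block and a type by day term, added after the data were seen. Against Mature Somites (12 and 10 gastruloids) 94 of 8349 genes (1.13%) differed in their day effect, and against Late Anterior PSM (12 and 9) 11 of 7060 (0.156%). Hoxb9 rose by log2 0.68 in Late Anterior PSM, 2.12 in Somites and 3.00 in Mature Somites cells, from 80.5, 38.8 and 11.6 CPM at day 4.5 to 128, 155 and 92.4 CPM at day 5. The rise was larger in Somites than in Late Anterior PSM by 1.53 (edgeR adjusted p = 3.7e-08) and smaller than in Mature Somites (difference -1.0, adjusted p = 0.0116). Hoxb7 was ordered the same way, with differences of 0.91 (adjusted p = 0.0255) and -0.98 (adjusted p = 0.0056). For Hoxa7 the difference from Mature Somites was -1.10 (adjusted p = 0.017), while that from Late Anterior PSM, 0.86, did not pass (adjusted p = 0.156). With at least 20 cells of each type the Hoxb9 difference from Late Anterior PSM was 2.01 (adjusted p = 0.00022), while that from Mature Somites was -1.03 and did not pass (0.496).

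The fall of Aldh1a2 and Crabp1 did not differ detectably between the types. Aldh1a2 fell by 1.06 on the log2 scale in Late Anterior PSM, 1.23 in Somites and 1.03 in Mature Somites cells, with differences of -0.16 and -0.21 (edgeR adjusted p = 0.865 and 0.591). Crabp1 fell by 1.64, 1.91 and 1.80, with differences of -0.30 and -0.12 (adjusted p = 0.851 and 0.815). A p above the threshold does not show equal change. Foxd1 rose in Late Anterior PSM by 0.98 on the log2 scale and had a value of -0.10 in Somites cells of the same gastruloids, a difference of -1.11 (adjusted p = 0.000263). The actin-binding gene Tpm1 rose more in Somites than in either neighbour, by 0.47 against Late Anterior PSM and 0.50 against Mature Somites (adjusted p = 0.00661 and 2.4e-05), the former not with at least 20 cells (0.38, adjusted p = 0.672). Foxd1 and Tpm1 were named after their values were seen.

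**Figure D5:**
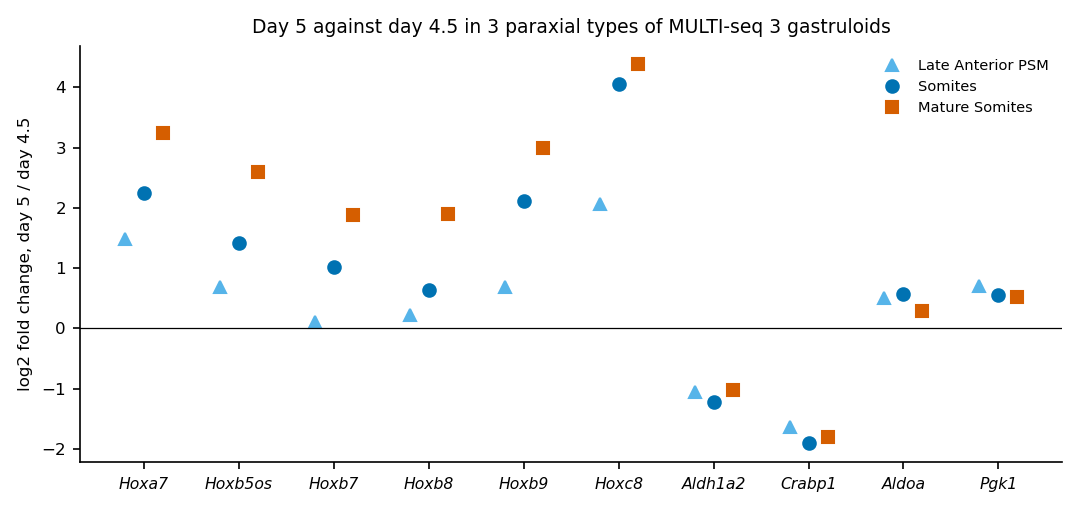
Log2 fold change from day 4.5 to day 5 in Late Anterior PSM, Somites and Mature Somites cells of MULTI-seq 3 gastruloids, 1 symbol per type. Hoxb9 rises in the order 0.68, 2.12 and 3.00, while Aldh1a2 lies between -1.23 and -1.03 in the 3 types.

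In MULTI-seq 2, days 4 and 4.5 shared a pool and 4 gastruloids of each day had at least 10 Somites cells (52 and 67 cells). Of 4408 genes, 19 (0.431%) passed, 13 higher (0.295%) and 6 lower (0.136%); 331 had an unadjusted p under 0.05. Hoxb4 had 5.40 to 16.9 CPM at day 4 and 34.2 to 83.1 CPM at day 4.5, without overlap (log2 2.11 ± 0.37, edgeR adjusted p = 0.00227). Of all 4408 genes, 179 did not overlap between the days, in either direction. Cited1, a transcriptional co-regulator, rose from 31.1 ± 16.7 to 135 ± 34.5 CPM (log2 2.01 ± 0.26, adjusted p = 2.2e-05), and the adhesion gene Cadm1 from 120 ± 12.6 to 285 ± 51.2 CPM (1.18 ± 0.15). The growth factor Ptn (1.01), the fibrillin Fbn2 (1.04), Eif4ebp1 (0.89) and Ccnd1 (0.75) rose, and Ptgds (-2.02), Fst (-1.18) and Col23a1 (-1.07) fell. None of the 4 given markers passed; Meox1 had a log2 change of 0.68 (adjusted p = 0.235) and Aldh1a2 of -0.20 (0.809). The count was 11 without 1 day 4 gastruloid and 12 without 1 day 4.5 gastruloid, and Ccnd1 lost its call in both.

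Between days 4 and 4.5 of MULTI-seq 3 the cells came from different pools, so day and pool cannot be told apart. Of 6869 genes, 2878 (41.9%) passed, 1468 higher (21.4%) and 1410 lower (20.5%), in 12 and 10 gastruloids. Without lane C of the later pool 1664 passed. With library sizes as the only scaling the split was 734 higher and 2573 lower, the median of all genes shifting to -0.19. Tcf15 rose from 695 ± 293 to 1378 ± 155 CPM (log2 1.13 ± 0.15, edgeR adjusted p = 9.34e-08), Meox1 from 153 ± 130 to 356 ± 66.9 (1.36) and Uncx from 45.9 ± 36.6 to 109 ± 61.5 (1.33), the last not without lane C of the later pool (0.68, adjusted p = 0.294). The fourth given marker, Aldh1a2, fell from 733 ± 124 to 482 ± 83.8 CPM (-0.41, adjusted p = 0.000191), not with at least 20 cells (0.14). Day 4 gastruloids varied widely, Tcf15 between 219 and 1277 CPM. Of 11 somite factors tested 8 rose and Twist1 fell, and of 13 Notch and clock genes 8 rose, among them Lfng (1.22) and Notch1 (0.87), and Jag1 fell.

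Members of several other lists changed in that step too. Of 4 retinoic acid genes tested Aldh1a2, Rdh10 and Crabp1 fell, but none did with at least 20 cells per gastruloid and 1 without lane B or C of the later pool. The dermomyotome genes Pax3, Dmrt2 and Sim1 and the caudal genes Dll1, Uncx and Efnb2 rose, all those tested in their lists, and of 12 adhesion and polarity genes 3 rose and 3 fell, near the 21.4% and 20.5% of all genes, among the latter the fibronectin gene Fn1 (-0.97). Dmrt2 did not pass without lane C of the later pool (edgeR adjusted p = 0.0706). Hoxb9 went from 3.09 ± 5.70 to 38.8 ± 19.8 CPM (log2 3.83 ± 0.37, edgeR adjusted p = 1.75e-10), Hoxb8 rose by 3.18, Hoxb7 by 3.16 and Hoxb4 by 1.33. Of 11 tested genes of the list of developmental timing genes, 8 fell, among them Nr6a1, a receptor of the early trunk, from 135 ± 9.88 to 58.9 ± 8.58 CPM (log2 -1.02 ± 0.08, adjusted p = 5.1e-13), Prtg (-0.82), Hmga2 (-0.51) and Lin28a (-0.93). Without lane B of the later pool 5 of them fell. Of 16 G2 and M phase genes 9 fell, Mki67 by 0.95 on the log2 scale, and the BMP targets Id3 (-1.60) and Id1 (-1.05) fell. With lane B or C of the later pool left out Id3 did not pass (adjusted p = 0.0541 and 0.0587), and neither did Id1 (0.167 and 0.127). Cardiopharyngeal genes also fell, Tbx1 by 3.19 and Gata6 by 1.27 (not without lane A, B or C of the later pool; adjusted p = 0.0785, 0.149 and 0.301), beside the fall in the sum of that marker list from a median of 110 to 31.9 CPM given above; their part in the other changes was not tested. The transcripts Gm42418 (-1.74) and AY036118 (-1.50), which overlap ribosomal RNA sequence, fell as well.

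Across experiments at day 5, Somites cells of MULTI-seq 3 and MULTI-seq 1 (12 and 13 gastruloids) differed in 1548 of 3970 genes (39%), 739 higher (18.6%) and 809 lower (20.4%). Depth, mitochondrial share and experiment differed together and cannot be told apart. With library sizes alone the split was 453 higher and 1568 lower at a median shift of -0.21, and with depth as a covariate 121 genes passed. Lane medians of Somites cells were 8253 to 14154 UMIs in MULTI-seq 1 and 26129 to 30619 in the lanes of days 4.5 and 5 of MULTI-seq 3. Depth thus nearly followed experiment, so a call lost with this covariate, here or below, does not tell depth and experiment apart. Genes with large differences were Hist1h2ap (log2 3.24) and Gm10076 (2.78), higher in MULTI-seq 3, and mt-Nd3 (-2.38), mt-Atp6 (-1.63) and mt-Co3 (-1.45), lower. Tcf15 differed by 0.41 and Meox1 by -0.71 on the log2 scale, and neither passed with depth as a covariate (adjusted p = 0.828 and 0.127). Aldh1a2 was lower in MULTI-seq 3 (201 ± 59.0 against 317 ± 74.1 CPM, log2 -0.51 ± 0.12, edgeR adjusted p = 0.000391; 0.916 with depth as a covariate), and Crabp1 was higher (0.44 ± 0.17, adjusted p = 0.0331). Of 14 glycolysis genes tested 10 were lower in MULTI-seq 3, a call that none of them kept with depth as a covariate. Of 5 tested Hox genes of groups 1 to 4, 4 (Hoxb1, Hoxb2, Hoxb3 and Hoxd4) were lower in MULTI-seq 3, with a list median of -0.60 on the log2 scale. Hoxb2 was at 65.1 ± 16.2 CPM in MULTI-seq 3 and 137 ± 26.9 in MULTI-seq 1 (log2 -0.88 ± 0.12, edgeR adjusted p = 2.08e-08), and did not pass with depth as a covariate (0.792). None of the 4 tested genes of groups 5 to 13 passed: Hoxb9 was at 155 ± 24.6 and 171 ± 27.2 CPM (-0.02 ± 0.09, adjusted p = 0.917), and Hoxa7 at 85.9 ± 16.8 and 86.5 ± 28.4 CPM (0.09 ± 0.13, adjusted p = 0.616).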

How the data were processed

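Single-cell libraries (10x 3' v3.1, MULTI-seq barcodes) of 18 lanes were used. Per the file headers, the authors made the deposited UMI counts with Cell Ranger 6.0.0. The submitters' processing notes also name Seurat and mm10. Cell names, barcode calls, days and mapped types came from the authors' deposited cell table. No source used here gives further filters. No doublet caller was run for this report. The deposited table holds a column of the authors' hybrid doublet calls, and 0 of its cells carry such a call. Cells called doublets by barcode stayed out of all gastruloid values.

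Lanes held 64703013 to 307883815 UMIs. Shares were compared by two-sided permutation tests over gastruloids (exact with fewer than 10 in a group), and genes with edgeR 4.0.16 quasi-likelihood tests on counts summed per gastruloid with at least 10 Somites cells (TMM scaling, edgeR's filter on low counts), both with Benjamini-Hochberg adjustment at 0.05. The standard errors of log2 changes derive from the F statistic. In simulated data with the day 5 against day 4.5 design, 82% of genes changed by a log2 of 1 were recovered among 6077 genes tested. Every simulated gene had the same dispersion, set and not estimated from the data, so 82% need not hold for the real genes. Alternatives were DESeq2 1.42.0, other minimum cell numbers, scaling, filters, a depth covariate and left-out lanes or gastruloids. Replicates were individual gastruloids grown from 1 embryonic stem cell line, and each group came from 1 experiment. The p-values thus measure the spread between gastruloids within an experiment and not the spread between experiments. Members and gene lists were chosen with earlier results of these data known. Genes were named by a rule: the given markers, up to 4 passing genes with the smallest p per list (or the most abundant where none passed), and the 10 largest changes each way among passing genes of at least 50 CPM. Some genes are not reported here; they stayed in the fits over all genes and out of the gene lists.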

Additional observations from a re-analysis of the deposited data

Results flagged for a closer look

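Sets of 4 to 10 gastruloids numbered 111, for named genes by group and for the Somites share of paraxial cells by group. The shares at days 3 and 3.5, all 0, were among them and could not be flagged. In 10 sets, all of genes, 1 gastruloid's level stood far above the others for the group's range (Dixon's 95% critical value), where chance gives about 1 in 20. In MULTI-seq 2 at day 4 this was Eif4ebp1, at 216.1 CPM against 120.5 to 133.1 in the other gastruloids. The rest were in MULTI-seq 3 at day 4.5. One gastruloid of 12 Somites cells had the highest Hoxb8 (91.68 CPM, others 21.68 to 58.45), Hoxb5os (133.4, others 37.17 to 87) and Skap2 (83.35, others 24.26 to 44.88). Another, of 11 cells, had the highest Lfng (241.1 CPM, others 66.68 to 134.1) and Il17rd (46.05, others 13.59 to 24.16). A different one of 11 cells had the highest Gm42418 (405.8 CPM, others 181.6 to 273.8) and Dusp6 (43.37, others 6.516 to 19.46). Gata6 reached 24.26 CPM in a gastruloid of 23 cells (others 0 to 10.84) and Rasgrp3 156.3 CPM in one of 19 cells (others 79.39 to 116.9).

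The day 5 against day 4.5 change of some genes differed between Somites and a neighbouring type by an interaction test (edgeR, gastruloid as a block). The log2 change in Somites minus that in Late Anterior PSM was 1.53 for Hoxb9, 0.91 for Hoxb7, 0.84 for Hoxb5os, 0.47 for Tpm1 and -1.11 for Foxd1. Against Mature Somites the difference was -1.34 for Hoxb8, -1.26 for Hoxb5os, -1.10 for Hoxa7, -1.0 for Hoxb9, -0.98 for Hoxb7, 0.50 for Tpm1 and 0.28 for Aldoa.

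Somites cells were also present in libraries without gastruloid calls, which entered no comparison. They made up 1.728% of cells in lane 1 (exact 95% binomial interval 1.281 to 2.279) and 2.026% in lane 2 (1.487 to 2.693) of pool C of MULTI-seq 2, and 3.033% (2.389 to 3.793) in the 10x lane of day 4. The intervals cover counting error only.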

How the results depend on the processing

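Differences in share are in percentage points, and where one changed, the cause was not tested. For day 4.5 against day 4 in MULTI-seq 2 the share of all cells differed by -1.062 with at least 100 cells per gastruloid and -0.8445 without lane 3 (leave-one-out range -0.8445 to 0.9603). The share of paraxial cells differed by -0.02053 with at least 50 paraxial cells, -4.605 over the 4 anterior paraxial types and -1.348 without lane 3 (range -1.348 to 1.759). For MULTI-seq 3 against 2 at day 4 the values were -1.233 with at least 100 cells, -1.795 with Mature Somites merged in and -0.6208 without lane 3 of MULTI-seq 2 (range -0.6208 to 0.9876). Among paraxial cells they were -0.5514 with at least 50, -4.188 over the anterior types, -2.942 without that lane and -0.01687 without lane B of MULTI-seq 3 (range -2.942 to 0.843). Merging Mature Somites gave 10.56 for day 5 against 4.5 in MULTI-seq 3 (unmerged range -0.9865 to -0.4353, paraxial -3.694 to -2.825) and 13.24 for MULTI-seq 3 against 1 at day 5 (permutation test, adjusted p = 0.0314; unmerged range 0.302 to 0.6512). The day 5 paraxial difference was 0.6638 without lane 1 of MULTI-seq 1 (range -1.017 to 0.6638). Ranges were 2.962 to 3.099 for day 4 against 3.5 (paraxial 6.173 to 6.37) and 0.5968 to 1.114 at day 4.5 (paraxial 0.1325 to 2.349). With both shares among paraxial cells, 8 relations passed.

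Genes called for day 5 against 4.5 numbered 57 with at least 20 cells, 82 with the depth covariate and 82 to 139 without a lane, against 221. For day 4.5 against 4 in MULTI-seq 3 they numbered 1363 with at least 20 cells and 1664 to 2828 without a lane, against 2878. In MULTI-seq 2 they numbered 32 with at least 5 cells, 12 by DESeq2, 53 unfiltered and 11 to 21 with a gastruloid left out, against 19; left-out lanes and a minimum of 20 were not run. At day 5 they numbered 976 with at least 20 cells, 121 with the covariate and 1052 to 1483 without a lane, against 1548. Genes whose day change differed from Mature Somites numbered 22 with at least 20 cells, against 94, and from Late Anterior PSM 6, against 11. Directions turned for day 5 against 4.5 at Tcf15 (0.04 with at least 20 cells; 0.05, 0.10 and 0.05 without lanes A, B and C) and Uncx (-0.02 with the covariate), for MULTI-seq 2 at Uncx (-0.01), for day 5 with the covariate at Uncx (-0.26), Nrarp (0.09), Lfng (0.28) and Pgk1 (0.11), and for the Crabp1 difference from Mature Somites (0.07 with at least 20 cells). Of the single genes named, 21 of 45, 24 of 35, 11 of 21 and 5 of 15 kept their call and direction under every alternative run, in the order of the 4 comparisons above. No paired analysis was possible because each gastruloid was of 1 day and barcode numbers used again in another pool mark different gastruloids.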

Other observations

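Other genes of Somites cells changed between day 4.5 and day 5 in MULTI-seq 3 (edgeR quasi-likelihood test, adjusted over all genes tested). Jun, a transcription factor of the AP-1 family, rose by 0.98 on the log2 scale (adjusted p = 5.12e-08). Igf2r, the receptor that clears insulin-like growth factor 2, rose by 0.91 (adjusted p = 2.35e-07). Pofut2, which adds fucose to secreted proteins, fell by 1.03 (adjusted p = 1.49e-08). Rasgrp3, an activator of Ras proteins, fell by 0.98 (adjusted p = 1.33e-07).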
